A study of Mus musculus with 6 samples.

Results

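Genes of fatty acid oxidation and other targets of the nuclear receptor PPARalpha were followed in mouse liver RNA. The 40 genes were listed by name as members of the pathway, with earlier results of these data known, and each was found by its symbol among the 58601 rows of the expression table. They cover the receptor and its partners, fatty acid uptake and activation, the carnitine shuttle, beta-oxidation in mitochondria and peroxisomes, omega-oxidation in microsomes, ketone body enzymes and other targets. The samples were 3 liver libraries from lycorine-treated mice and 3 from vehicle-treated mice, and both groups carried the knockout of Mdr2 (Abcb4), the canalicular phosphatidylcholine transporter. The labels give the genotype as Mdr2 knockout, and the protocol calls the animals Mdr2-HKO. All mice were 8 weeks old at the start and were treated for 2 weeks with lycorine, an alkaloid of Amaryllidaceae plants, or with vehicle. Strain, sex, dose and the promoter of any Cre are not given in the labels, and no mice without the knockout were analysed here. The series was designed around lycorine and intrahepatic cholestasis, the hold-up of bile within the liver.

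Fatty acids enter mitochondria as carnitine esters and are shortened there by repeated rounds of dehydrogenation, hydration, a further dehydrogenation and thiolysis. Peroxisomes shorten very long and branched chains, and microsomal cytochromes of the Cyp4a family oxidise the far end of the chain. PPARalpha, which binds fatty acids, drives many of these genes in the fasted liver, and in rodents its activation is known above all for strong induction of Cyp4a and peroxisomal genes.

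Values are in TPM, a level per transcript length in which all rows of a library share a fixed sum. The labels number the libraries within each group but do not state that each is a separate animal, so tests measure the spread between libraries, which may be in part technical. Depth is unknown for all 6 libraries. Abcb4 transcripts were present in every library, at 8.32 to 32.2 TPM in lycorine and 10.8 to 43.5 TPM in vehicle. A gene-level value does not show which part of a transcript remains, so this did not check the genotype. The makeup of the libraries was unequal. Protein-coding nuclear genes took 69.5% to 78.1% of TPM in lycorine libraries and 51.5% to 71.5% in vehicle libraries, with vehicle 3 lowest. Hepatocyte markers were strong in all 6 libraries, with summed levels of 30130.4 to 45909 TPM over 6 markers in lycorine and 14273 to 42412 TPM in vehicle, and vehicle 3 was again lowest. The 6 Kupffer cell markers summed to 82.8 to 172 TPM in lycorine and 139 to 269 TPM in vehicle, and the 6 sinusoidal endothelial markers to 8.10 to 12.3 TPM in lycorine and 15.9 to 52.1 TPM in vehicle. C1qa alone gave 154 TPM of the Kupffer sum in lycorine 1. Clec4f, Vsig4, Cd5l and Timd4 were each lower in every lycorine library than in every vehicle library, as in 1.01% of all rows. For Marco and C1qa the groups overlapped. Of the endothelial markers, Clec4g and Mrc1 were lower in every lycorine library, and Mrc1 only narrowly (3.29 against 3.39 TPM). For Stab2, Lyve1, Oit3 and Kdr the groups overlapped. Single values weighed on the vehicle sums, with Mrc1 at 35.0 TPM in vehicle 3 and Kdr at 14.1 TPM in vehicle 1. The 6 cholangiocyte markers summed to 50.2 to 200 TPM in lycorine and 39.9 to 201 TPM in vehicle. The 6 stellate cell markers summed to 15.0 to 68.3 TPM in lycorine and 19.1 to 52.3 TPM in vehicle. In both sets lycorine 1 and vehicle 1 were the highest of their groups. In bulk tissue, fewer cells of a type and less RNA per cell cannot be told apart.

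None of the 40 genes passed the test. In limma on log2(TPM + 1), with Benjamini-Hochberg adjustment over the 13854 rows that averaged 1 TPM or more, 39 of the 40 were tested and their adjusted p lay between 0.832 and 0.961. Their standard errors on the log2 scale ran from 0.26 to 0.99, and a missed threshold does not show that levels were equal. Of all tested rows, 0 were under 0.05 after adjustment and 476 before it. An unadjusted p under 0.05 was reached by 2 of the 39 genes, Acaa2 and Decr1, or 5.13%, beside 3.44% of all tested rows. Both lay on the higher side, as did 2.79% of all rows. With median-of-ratios scaling 0 of the 39 reached it, beside 2.31% of rows, and after rescaling to protein-coding nuclear genes only Acaa2 did, beside 2.10%. DESeq2 and edgeR were not run, since no counts were used here.

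Most of the genes nevertheless had higher values in lycorine, as did most rows of the table. A log2 fold change above 0 was found for 33 of the 39, or 84.6%, beside 69.9% of all rows. With a minimum mean of 5 TPM it was found for 85.7% of 35 genes, beside 79.6% of the rows then tested. The median log2 fold change of the 39 was 0.38, against 0.22 for all rows, a difference of 0.15. The difference was 0.32 with no filter, 0.046 with a minimum mean of 5 TPM and 0.043 with quantile normalization. It was 0.076 without vehicle 3, 0.083 without lycorine 2, 0.26 without vehicle 2 and 0.27 without lycorine 3. Above that median of all rows lay 29 of the 39. In 9 of the 39 genes, or 23.1%, each lycorine library was above each vehicle library, beside 9.60% of all rows, and in 0 of them was each below (1.01% of all rows). These 9 were Creb3l3, Slc27a2, Cpt1a, Acadm, Echs1, Acaa2, Decr1, Acot4 and Bdh1. With a minimum mean of 5 TPM, 22.9% of 35 genes stood apart upward, beside 13.8% of rows. These counts differed between scalings. With values rescaled to the sum of protein-coding nuclear genes, 28 of 39 were above 0 (71.8%, beside 52.8% of rows) and only Acaa2, Acadm and Acot4 kept apart, which is 7.69%, beside 4.82% of the rows then tested. With median-of-ratios scaling 26 were above 0 (66.7%, beside 47.8% of rows) and the count apart was also 3, namely Acaa2, Cpt1a and Bdh1, beside 3.20% of rows. Leaving out 1 library makes separation easier for any row. Without vehicle 1, 19 genes stood apart upward, beside 31.0% of all rows, and without lycorine 3 it was 21, beside 19.1%. Without vehicle 2 it was 10, beside 11.1%, and 4 others stood apart downward, beside 7.59%. An unadjusted p under 0.05 was reached by 5 genes without vehicle 1, beside 8.37% of rows, by 1 without lycorine 1, beside 1.72%, and by 0 without lycorine 2, beside 1.41%.

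**Figure D1:**
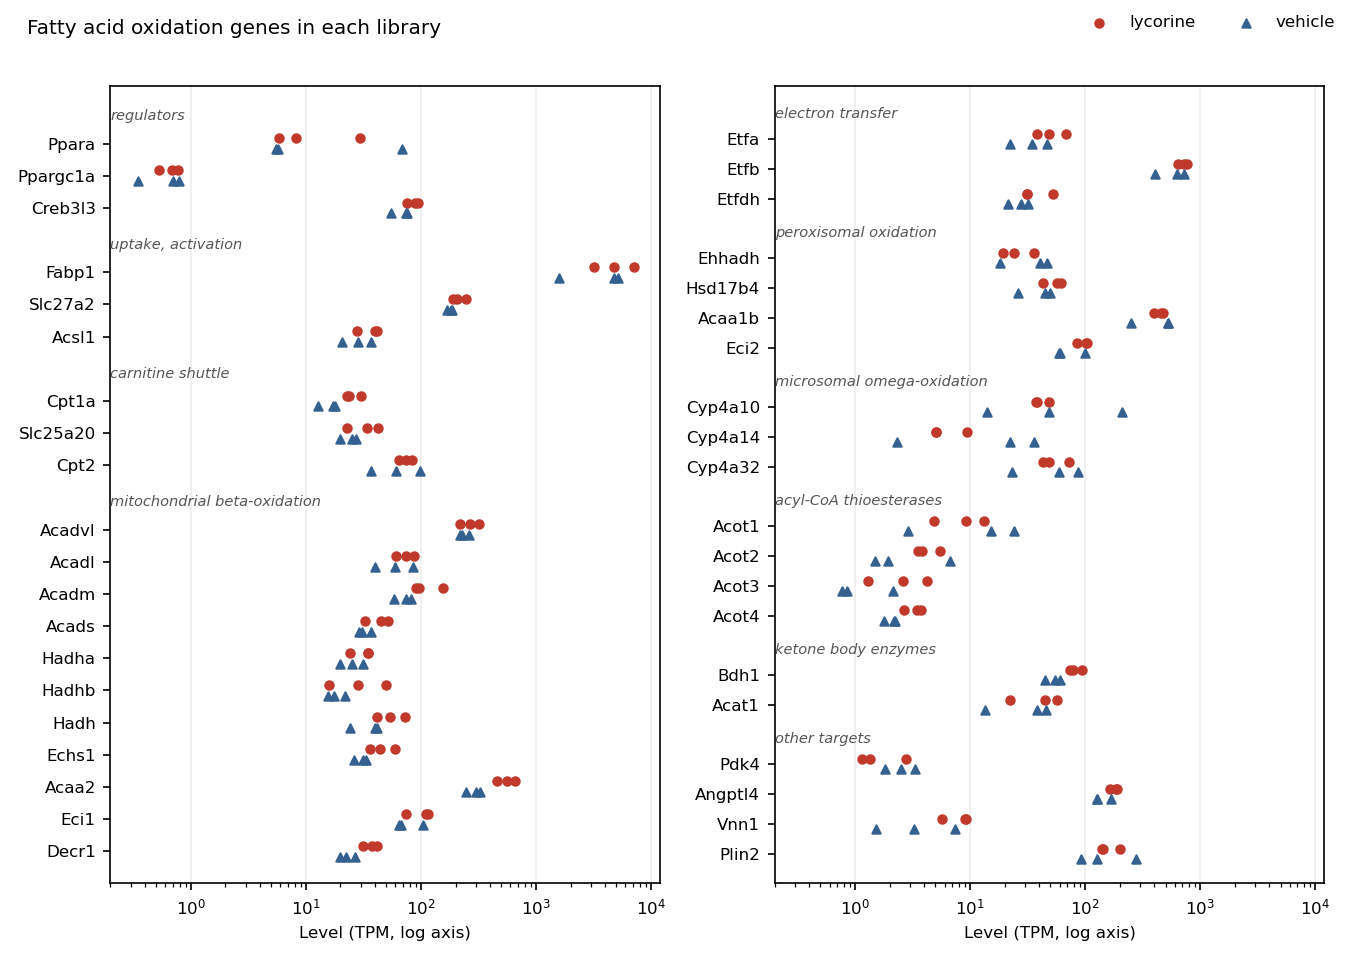
Level of each of the 40 genes in TPM on a log axis, grouped by role, with 1 red circle for each of 3 lycorine libraries and 1 blue triangle for each of 3 vehicle libraries. Acaa2 is at 463 to 659 TPM in lycorine, to the right of all vehicle libraries, while Cyp4a10 and Cyp4a14 have their widest scatter among vehicle libraries.

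PPARalpha binds DNA with RXR at a direct repeat known as DR1, which is the element AGGTCA, then any 1 base, then the same element again. On the other strand the element reads TGACCT. The motif was searched on both strands in windows from 250 bases before to 50 after the annotated start, from RefSeq on GRCm38.p6, in 32 of the 40 genes. No window was searched for Acaa2, Acat1, Angptl4, Cyp4a10, Cyp4a14, Decr1, Hsd17b4 and Vnn1. With no mismatch in the 12 fixed letters, 0 of 32 genes and 0.0481% of 27025 genes held it. With up to 1 mismatch it was found in 1 gene, Fabp1, or 3.12%, beside 0.644% of all genes. With up to 2 it was found in 7 genes, or 21.9%, beside 4.40% of all genes. A match of letters is a description and not a binding site, and no binding was measured here. The 7 matches, the nearest to the known element of the receptor among the list, are shown 5′ to 3′ on the strand of the gene, with the matched letters in capitals and flanks up to the transcript. In Fabp1, Acot4, Etfa and Plin2 the capitals read as the reverse complement.
Fabp1, chr6:71199772-71199826, plus strand: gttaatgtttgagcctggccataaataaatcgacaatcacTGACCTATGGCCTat
Acot4, chr12:84038326-84038378, plus strand: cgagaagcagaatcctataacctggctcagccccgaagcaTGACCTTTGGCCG
Echs1, chr7:140116477-140116544, minus strand: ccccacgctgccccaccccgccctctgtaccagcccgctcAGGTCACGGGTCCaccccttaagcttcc
Etfa, chr9:55512268-55512360, minus strand: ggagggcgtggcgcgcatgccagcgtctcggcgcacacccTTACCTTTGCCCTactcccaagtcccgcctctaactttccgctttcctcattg
Plin2, chr4:86670232-86670309, minus strand: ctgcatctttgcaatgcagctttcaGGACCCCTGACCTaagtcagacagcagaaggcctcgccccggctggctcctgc
Creb3l3, chr10:81092748-81092806, minus strand, before an internal start: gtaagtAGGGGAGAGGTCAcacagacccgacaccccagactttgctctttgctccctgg
Slc25a20, chr9:108662142-108662154, plus strand, inside the first exon: AGGTGAAAGGTCG
The 7 genes had log2 fold changes of 0.10 (Plin2) to 0.59 (Etfa), 0 of them had an unadjusted p under 0.05, and in 3, Acot4, Echs1 and Creb3l3, each lycorine library was above each vehicle library in TPM, as in 9.60% of all rows. Echs1 and Creb3l3 overlapped between groups under all 3 other scalings, and Acot4 under all but the rescaling to protein-coding nuclear genes.

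The regulators gave no common direction. Ppara, the receptor itself, on chromosome 15 from 85734983 to 85802819 of GRCm38, was at 5.90, 8.29 and 29.6 TPM in lycorine and at 5.78, 5.46 and 68.7 TPM in vehicle. The third library of each group was thus several times above the other two of its own group, with overlapping groups. On the log2 scale lycorine over vehicle came to -0.21 with an SE of 0.99 (adjusted p = 0.961 by limma), to 0.92 with vehicle 3 left out and to -0.86 with lycorine 3 left out, and it was also above 0 without lycorine 1 (0.22) or lycorine 2 (0.0032). The same libraries had the largest share of TPM in rows without a name in the annotation, 4.10% in lycorine 3 and 10.8% in vehicle 3, against 1.65% to 2.92% in the other four libraries. The part of this in the Ppara values was not tested.

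Ppargc1a, a coactivator of mitochondrial genes, was under the minimum for testing, at 0.69, 0.53 and 0.78 TPM in lycorine and 0.35, 0.70 and 0.79 TPM in vehicle, and the groups overlapped. Creb3l3, a liver transcription factor released from the endoplasmic reticulum that acts with PPARalpha in fasting, was at 93.6, 75.9 and 89.1 TPM in lycorine and 73.8, 54.8 and 75.8 TPM in vehicle. The groups did not overlap, but lycorine 2 and vehicle 3 nearly met. The log2 fold change was 0.34 (SE 0.28, adjusted p = 0.832 by limma) and 0.08 after rescaling to protein-coding nuclear genes.

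Fabp1, the fatty acid binding protein of the hepatocyte cytosol and the gene with the closest DR1 match above, was the most abundant of the 40. It stood at 4808, 7152 and 3229.6 TPM in lycorine and 5163, 4750.4 and 1588 TPM in vehicle, with vehicle 3 far below the rest and the groups overlapping. Its log2 fold change of 0.50 (SE 0.52, adjusted p = 0.833 by limma) was -0.04 without vehicle 3. Acsl1, which couples long-chain fatty acids to coenzyme A, averaged 36.5 ± 7.44 TPM in lycorine and 28.7 ± 8.30 TPM in vehicle (SD, n = 3 each), which is 0.36 on the log2 scale (SE 0.33, adjusted p = 0.832 by limma). Slc27a2, a very long-chain acyl-CoA synthetase and transporter, was at 244, 205 and 192 TPM in lycorine and 186, 183 and 167 TPM in vehicle. Its groups did not overlap in TPM, yet its log2 fold change of 0.25 became -0.02 after rescaling to protein-coding nuclear genes.

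All 3 genes of the carnitine shuttle had fold changes above the median of all rows. Cpt1a, on chromosome 19 from 3322334 to 3385733, makes acylcarnitines at the outer mitochondrial membrane and is the main control point of entry. It was at 30.4, 22.6 and 23.8 TPM in lycorine and 17.97, 12.6 and 17.1 TPM in vehicle, so that every lycorine library exceeded every vehicle library. The mean TPM was 1.61 times that of vehicle, with a log2 fold change of 0.66 (SE 0.29, adjusted p = 0.832 by limma). It ranged from 0.51 to 0.75 as each library was left out, and it was 0.41 after rescaling to protein-coding nuclear genes. Slc25a20, the carnitine-acylcarnitine carrier of the inner membrane, averaged 33.0 ± 9.82 TPM in lycorine and 24.0 ± 3.95 TPM in vehicle (SD, n = 3 each), with overlapping libraries and a log2 fold change of 0.41 (SE 0.33, adjusted p = 0.832 by limma). Cpt2, which returns acyl groups to coenzyme A in the matrix, was at 64.6, 84.1 and 74.1 TPM in lycorine and 99.0, 60.9 and 37.1 TPM in vehicle. The lycorine values lay inside the vehicle range, and its log2 fold change of 0.28 was -0.03 with median-of-ratios scaling.

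The genes of mitochondrial beta-oxidation had higher mean values in lycorine throughout, in TPM. All 11 genes had a log2 fold change above 0, and all but Acadvl (0.17) exceeded the all-row median of 0.22. The median of the 11 was 0.59. With median-of-ratios scaling, Acadvl (-0.14) and Hadha (-0.02) were below 0. Summed over the 11 genes the level was 1451, 1501 and 1134 TPM in lycorine and 964, 881 and 870.1 TPM in vehicle. Every lycorine sum in TPM was above every vehicle sum, and Acaa2 gave 463 to 659 TPM of it in lycorine and 249 to 327 TPM in vehicle. Rescaled to protein-coding nuclear genes the sums were 1859, 1991 and 1632 in lycorine and 1347, 1384 and 1690 in vehicle. On that scale vehicle 3 exceeded lycorine 3 and the groups overlapped.

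Acaa2, the thiolase that closes each round of mitochondrial beta-oxidation, lies on chromosome 18 from 74779197 to 74806208. It was at 564, 659 and 463 TPM in lycorine and 249, 301 and 327 TPM in vehicle. In TPM the lowest lycorine library was well above the highest vehicle library. The mean TPM was 1.92 times that of vehicle, with a log2 fold change of 0.93 (SE 0.28, adjusted p = 0.832 by limma) and of 0.81 to 1.07 as each library was left out. It was the only one of the 39 genes whose groups stayed apart under all 3 other scalings. The log2 fold change was 0.67 after rescaling to protein-coding nuclear genes and 0.62 with median-of-ratios scaling. On the protein-coding scale lycorine 3 and vehicle 3, with shares of 69.5% and 51.5% of TPM, nearly met. A ratio within each library does not depend on the scaling. Acaa2 stood to the sum of the other 10 genes as 0.635, 0.783 and 0.690 to 1 in lycorine and as 0.348, 0.520 and 0.603 to 1 in vehicle, a comparison chosen after its values were seen. The lycorine ratios all exceeded the vehicle ratios, but 0.635 in lycorine 1 was close to 0.603 in vehicle 3. The ratio uses the same values that singled out Acaa2, so it adds no separate support. The share of other genes with ratios so parted was not counted.

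Decr1, a reductase needed for unsaturated chains, was at 41.4, 37.6 and 31.2 TPM in lycorine and 22.3, 19.6 and 26.9 TPM in vehicle, without overlap. Its log2 fold change was 0.66 (SE 0.28, adjusted p = 0.832 by limma), and the groups overlapped after rescaling to protein-coding nuclear genes, where it was 0.40. Echs1, the hydratase of short chains, was at 59.3, 44.3 and 35.8 TPM in lycorine and 31.2, 33.0 and 26.2 TPM in vehicle, again without overlap in TPM (log2 fold change 0.59, SE 0.30, adjusted p = 0.832 by limma). Part of Echs1 overlaps Paox on the opposite strand, a gene with a mean of 11.3 TPM, and the labels do not say that reads were counted by strand.

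The other 8 genes of this group had log2 fold changes of 0.17 to 0.66. The first step is done by acyl-CoA dehydrogenases of falling chain length, and the very long-chain enzyme Acadvl had 0.17, Acadl 0.31, the medium-chain enzyme Acadm 0.62 and the short-chain enzyme Acads 0.38. Acadm stood apart between groups, at 156, 95.4 and 90.0 TPM in lycorine and 82.6, 73.9 and 58.9 TPM in vehicle. The subunits of the trifunctional protein, Hadha and Hadhb, had 0.28 and 0.61, although Hadhb spanned 15.8 to 49.4 TPM within lycorine and 15.6 to 21.9 TPM within vehicle. Hadh, which oxidises hydroxyacyl chains, had 0.66, and the isomerase Eci1 had 0.35. In both, libraries of the groups overlapped.

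**Figure D2:**
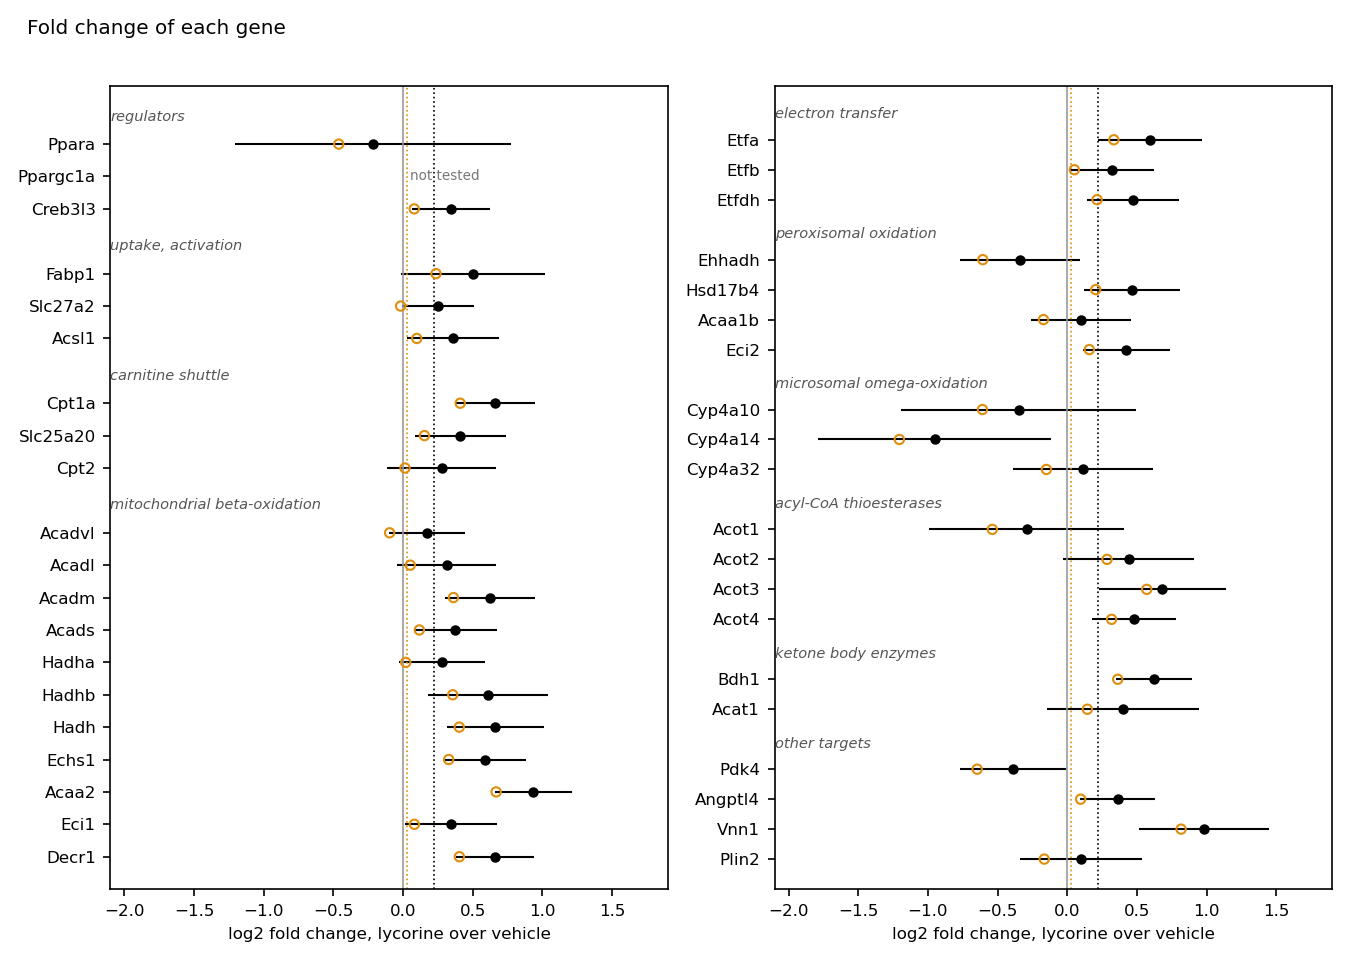
Log2 fold change of lycorine over vehicle for each gene. Black points with standard error bars are from TPM, orange rings are from values rescaled to protein-coding nuclear genes, and the dotted lines mark the median of all rows on each scale (0.22 and 0.03). Acaa2 is at 0.93 and 0.67 and Cyp4a14 at -0.95 and -1.20.

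Electrons from the dehydrogenases pass to the respiratory chain through the flavoprotein of Etfa and Etfb and its oxidoreductase Etfdh. Etfa was at 68.5, 48.2 and 38.4 TPM in lycorine and 34.7, 46.3 and 22.3 TPM in vehicle, and Etfdh at 53.0, 31.2 and 31.0 TPM in lycorine and 31.6, 27.6 and 21.4 TPM in vehicle. The log2 fold changes were 0.59 (SE 0.37) for Etfa and 0.47 (SE 0.33) for Etfdh, both with a limma adjusted p of 0.832. Etfb, at 648 to 762 TPM in lycorine and 406 to 717 TPM in vehicle, had 0.32. The groups overlapped in all 3 genes.

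The ketone body enzymes differed in how well the groups parted. Bdh1, which makes 3-hydroxybutyrate, was at 93.8, 78.9 and 74.6 TPM in lycorine and 60.2, 45.1 and 54.4 TPM in vehicle, without overlap. Its log2 fold change was 0.62 (SE 0.27, adjusted p = 0.832 by limma), from 0.51 to 0.72 as each library was left out and 0.36 after rescaling to protein-coding nuclear genes. Acat1, which makes acetoacetyl-CoA, averaged 41.3 ± 17.8 TPM in lycorine and 32.5 ± 16.9 TPM in vehicle (SD, n = 3 each). It was low in the third library of each group, at 22.0 TPM in lycorine 3 and 13.6 TPM in vehicle 3, and its log2 fold change of 0.40 (SE 0.54, adjusted p = 0.873 by limma) was -0.12 without vehicle 3.

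Of the 4 peroxisomal oxidation genes, Ehhadh alone had a log2 fold change below 0 in TPM, and none passed the test. Eci2, an isomerase found in peroxisomes and mitochondria, was at 101, 103 and 84.2 TPM in lycorine and 59.6, 60.6 and 100.3 TPM in vehicle, where vehicle 3 reached the lycorine range (log2 fold change 0.42, SE 0.31, adjusted p = 0.832 by limma). Hsd17b4, the bifunctional enzyme that also shortens the side chain of bile acid precursors, was at 62.2, 57.4 and 43.5 TPM in lycorine and 49.3, 45.3 and 25.9 TPM in vehicle (log2 fold change 0.46, SE 0.34, adjusted p = 0.832 by limma). The groups overlapped in both genes.

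Ehhadh, the bifunctional enzyme of the inducible peroxisomal pathway, had a log2 fold change of -0.34 (SE 0.43). It was at 35.9, 24.3 and 19.2 TPM in lycorine and 46.9, 18.3 and 40.6 TPM in vehicle. Acaa1b, a peroxisomal thiolase, was at 454, 399 and 473 TPM in lycorine and 528, 251 and 528 TPM in vehicle. The log2 fold change of Acaa1b was 0.10, and -0.17 after rescaling to protein-coding nuclear genes. In both, vehicle 2 was the lowest of the 6 libraries and the other vehicle libraries the highest. Acaa1b shares 35.5% of its 50-base words with its neighbour Acaa1a, so reads of these genes can be split between them.

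The microsomal Cyp4a genes lie together on chromosome 4, and Cyp4a10 and Cyp4a14 had the widest spread of the 40 genes within a group, in vehicle. Cyp4a10, one of the genes most strongly induced by PPARalpha activators in mice, was at 37.4, 38.5 and 48.9 TPM in lycorine and 208, 14.1 and 48.7 TPM in vehicle. The highest library was 1.31 times the lowest in lycorine and 14.8 times in vehicle. Cyp4a14, its relative with the same inducers, was at 9.48, 5.08 and 5.07 TPM in lycorine and 35.7, 2.31 and 22.1 TPM in vehicle, or 1.87 times and 15.4 times. In both, the lycorine libraries lay within the vehicle range.

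The log2 fold changes were -0.35 (SE 0.84, adjusted p = 0.927 by limma) for Cyp4a10 and -0.95 (SE 0.84, adjusted p = 0.832 by limma) for Cyp4a14. Leaving out vehicle 1 gave 0.63 for Cyp4a10 and -0.26 for Cyp4a14. Leaving out vehicle 2 gave -1.27 for Cyp4a10 and -2.0 for Cyp4a14. Cyp4a32 was at 43.1, 48.1 and 73.1 TPM in lycorine and 87.1, 23.2 and 58.8 TPM in vehicle, again with vehicle 1 highest and vehicle 2 lowest. Its log2 fold change of 0.11 was -0.15 after rescaling to protein-coding nuclear genes. Cyp4a32 shares 34.8% of its 50-base words with Cyp4a10 and Cyp4a14 shares 0%, so the division of reads is uncertain for the first pair.

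**Figure D3:**
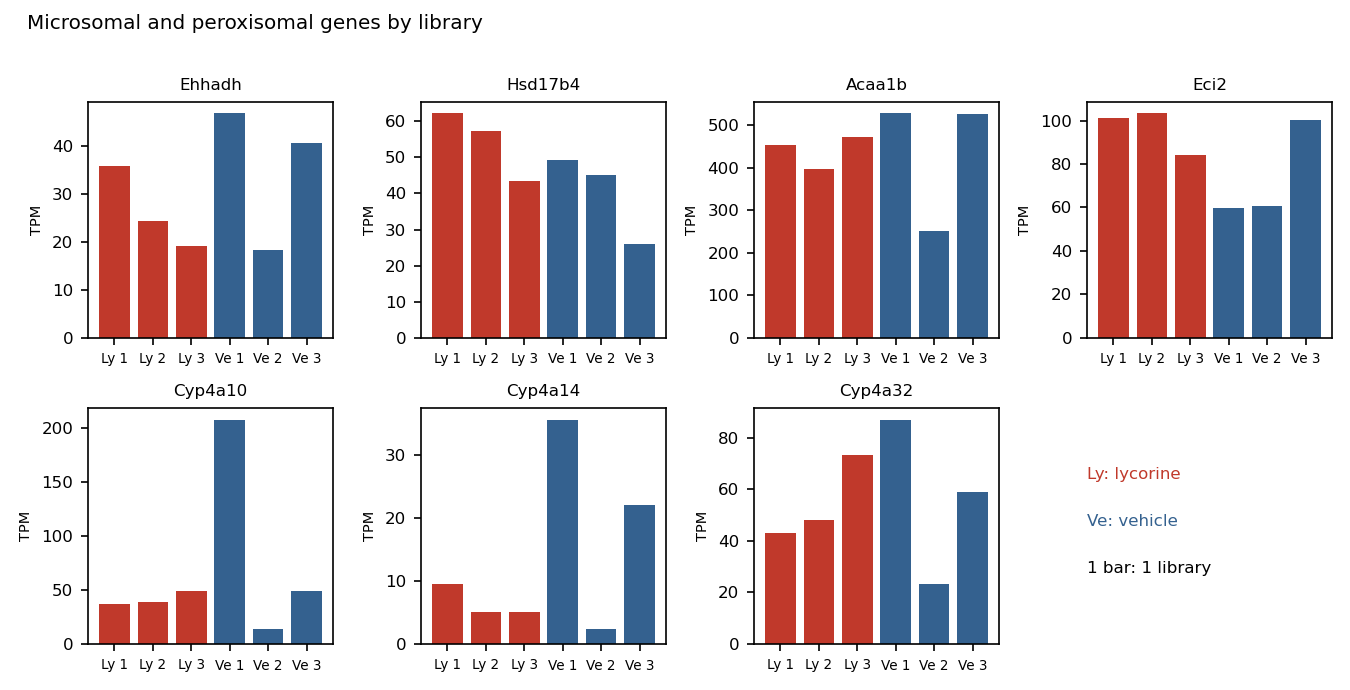
Level in TPM of the 4 peroxisomal oxidation genes and the 3 Cyp4a genes, with 1 bar for each library, lycorine in red and vehicle in blue. In vehicle 2 the bars of Ehhadh, Acaa1b, Cyp4a10, Cyp4a14 and Cyp4a32 are the lowest of the 6, and in vehicle 1 they are the highest.

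Acyl-CoA thioesterases, which release free fatty acids in different compartments, lie in a cluster on chromosome 12 between 83987861 and 84060402. Acot4 and Acot3, both peroxisomal, had log2 fold changes of 0.48 (SE 0.30) and 0.68 (SE 0.46), each with a limma adjusted p of 0.832. Acot4 was at 3.44, 2.64 and 3.77 TPM in lycorine and 2.18, 2.21 and 1.78 TPM in vehicle, without overlap, and Acot3 at 2.59, 1.29 and 4.20 TPM in lycorine and 0.86, 0.77 and 2.15 TPM in vehicle, with overlap. The cytosolic Acot1 followed the order of the Cyp4a genes in part, with vehicle 2 lowest, at 13.1, 9.30 and 4.90 TPM in lycorine and 15.1, 2.86 and 24.3 TPM in vehicle. The mitochondrial Acot2 was at 5.47, 3.79 and 3.56 TPM in lycorine and 6.70, 1.95 and 1.48 TPM in vehicle. Acot1 shares 23.5% of its 50-base words with Acot2, so the split of their reads is uncertain.

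The other targets were also mixed. Vnn1, a pantetheinase that is strongly induced by PPARalpha, had a log2 fold change of 0.98 (SE 0.47, adjusted p = 0.832 by limma), the largest of the 39 on the log2(TPM + 1) scale. By the ratio of mean TPM, lycorine over vehicle, Acot3 stood higher with 2.14 than Vnn1 with 1.98. It was at 9.27, 9.06 and 5.65 TPM in lycorine and 7.37, 1.53 and 3.23 TPM in vehicle, so that vehicle 1 lay inside the lycorine range. Without vehicle 2 its log2 fold change was 0.57 and without vehicle 1 it was 1.43. Angptl4, a secreted inhibitor of lipoprotein lipase, was at 166, 185 and 189.5 TPM in lycorine and 128, 126 and 169 TPM in vehicle (log2 fold change 0.36, SE 0.27, adjusted p = 0.832 by limma). Vehicle 3 exceeded lycorine 1.

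Pdk4, a kinase that holds back glucose oxidation, was at 2.76, 1.16 and 1.35 TPM in lycorine and 2.53, 1.83 and 3.29 TPM in vehicle, a log2 fold change of -0.39. Plin2, a coat protein of lipid droplets, was at 199.6, 143 and 141 TPM in lycorine and 278, 92.5 and 127 TPM in vehicle, with vehicle 1 highest and vehicle 2 lowest. Its log2 fold change was 0.10, and -0.17 after rescaling to protein-coding nuclear genes. Angptl4 and Plin2 are also made by adipocytes. The 6 adipocyte markers summed to 0.13 to 0.52 TPM in lycorine and 0 to 0.27 TPM in vehicle, with Lep and Retn at 0 in every library.

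By compartment, the median log2 fold change relative to all rows was 0.22 for the 21 mitochondrial genes, 0.22 for the 6 peroxisomal genes, 0.12 for the 9 other genes tested and -0.57 for the 3 microsomal genes. For the microsomal genes it was 0.13 without vehicle 1 and -1.36 without vehicle 2, and for the mitochondrial genes it was 0.12 without vehicle 3, 0.13 without lycorine 1, 0.40 without lycorine 3 and 0.41 without vehicle 2. For the peroxisomal genes it was 0.02 without vehicle 1 and 0.14 without vehicle 3 or lycorine 2, and with a minimum mean of 5 TPM it was -0.056. A score per library, the median deviation of the genes from their means less that of all rows, showed how the libraries lay. Mitochondrial scores were 0.28, 0.24 and -0.06 in lycorine and -0.16, 0.21 and -0.28 in vehicle, and microsomal scores -0.47, -0.30 and 0.05 in lycorine and 1.71, -1.22 and 0.40 in vehicle. Vehicle 2 thus reached the lycorine range for mitochondrial genes and had the lowest score for microsomal genes, while vehicle 1 had the highest microsomal score. Hepatocyte markers, none of which belongs to the list, also had higher mean values in lycorine, in TPM. All 6 had a log2 fold change above 0, beside 69.9% of all rows, with a median of 0.27 relative to all rows. The share above 0 was 66.7% after rescaling to protein-coding nuclear genes (52.8% of rows). It was also 66.7% with median-of-ratios scaling (47.8% of rows) and without vehicle 3 (72.7% of rows). The marker scores were 0.32, 0.41 and -0.14 in lycorine and -0.05, 0.70 and -0.89 in vehicle. The part of the markers in the mitochondrial values was not tested.

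**Figure D4:**
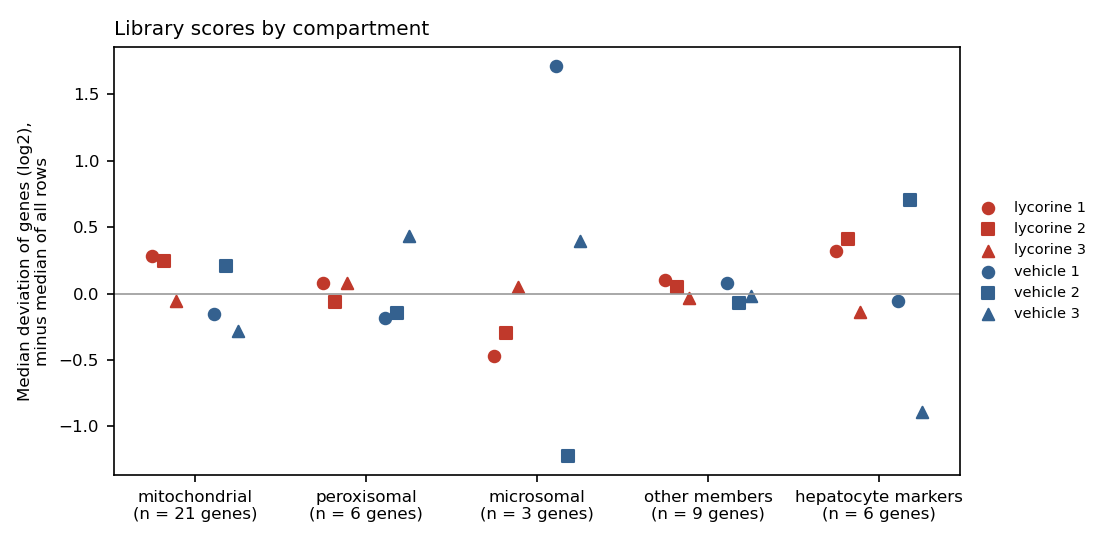
Median deviation on the log2 scale of the genes of each compartment, less that of all rows, with 1 point for each library, lycorine left of vehicle and a shape for each library number. Microsomal points run from -1.22 to 1.71 in vehicle and from -0.47 to 0.05 in lycorine, and in the hepatocyte markers vehicle 3 is lowest at -0.89.

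A wider list of the pathway, drawn up with earlier results known, was read beside the 40 genes. Of its 63 genes of fatty acid oxidation and PPARalpha signalling, 58 were tested and 0 passed over all rows in limma. An unadjusted p under 0.05 was reached by 6, or 10.3%, beside 3.44% of all rows, and all 6 lay on the higher side. Upward, 12 stood apart, or 20.7%, beside 9.60% of all rows. After rescaling to protein-coding nuclear genes the shares were 3.45% and 13.8%, beside 2.10% and 4.82% of rows. Their median log2 fold change was 0.37 against 0.22 for all rows. Above the all-row median lay 94.7% of the 19 peroxisomal, 61.9% of the 21 mitochondrial, 75% of the 4 microsomal and 42.9% of the 14 other genes tested. After rescaling to protein-coding nuclear genes these shares were 78.9%, 57.1%, 75% and 42.9%. Hacl1, a peroxisomal lyase of branched-chain oxidation, averaged 54.8 ± 19.1 TPM in lycorine and 25.3 ± 4.72 TPM in vehicle (SD, n = 3 each), or 1.05 on the log2 scale. Acot8, a peroxisomal thioesterase, averaged 13.5 ± 0.934 TPM in lycorine and 7.65 ± 0.734 TPM in vehicle (SD, n = 3 each), with 0.75. Acsm1, a medium-chain acyl-CoA synthetase of mitochondria, had a log2 fold change of 0.83, Aldh3a2, which oxidises fatty aldehydes, 0.96, and Abcd3, a peroxisomal fatty acid importer, 0.71. These 5 were named for the smallest p of this list. In all 5 each lycorine library was above each vehicle library in TPM, and the limma adjusted p was 0.832. Genes chosen for a small p on these values tend to stand apart, so this adds no support. Of all rows, which were not so chosen, 9.60% stood apart upward. After rescaling to protein-coding nuclear genes the groups overlapped for Acsm1, and the others stayed apart.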

How the data were processed

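Liver RNA sequencing gave 1 deposited table of 58601 rows and 6 libraries. The authors named it for FPKM, but every deposited column sums to 1000000 within rounding, so its values were treated as TPM. The submitters' processing notes name GRCm38 and mm10. The sources used here do not give aligner, quantifier or annotation. Total RNA came from frozen liver and was made into NEBNext Ultra libraries, per the labels' protocols. Drug columns bear "Ly". The remaining columns, named by genotype and number alone, were matched to vehicle by that number. Symbols and coordinates were taken from GENCODE M21, which named 52135 rows and all 40 genes of the list.

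The 13854 rows averaging at least 1 TPM were tested two-sided as log2(TPM + 1), which understates fold changes of low genes. limma 3.58.1 (R 4.3.3) used a mean-variance trend, and Benjamini-Hochberg adjusted p under 0.05 counted as passing. TPM keeps no depth, so no counting interval is given. The members and gene lists were chosen with earlier results of these data known. Ppara, Ppargc1a, Creb3l3, Cpt1a and the 2 smallest p of each role (3 where a role had more than 4 genes) got full statistics, Ppargc1a without a test. Of the wider list the 5 smallest p were named. Words of 50 bases shared by related transcripts were counted in M21. The test was also run on simulated data, where none of the smallest changes tried was recovered. Those changes were slightly larger than the largest change of any member on the tested scale. Alternatives varied pseudocount, filter, scaling, variance model, library weights, replicate block and libraries.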

Additional observations from a re-analysis of the deposited data

How the results depend on the processing

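Depth is unknown, so counting error could not be set apart from other spread, and values of a few TPM are the least certain. None of the 21 genes with full statistics and a test had its direction turned by another pseudocount, filter or scaling. Ppara and Cyp4a10 had it turned by library weights, and Ppara, Fabp1, Cyp4a10 and Acat1 by leaving out libraries. Over these 21 genes, 345 of 355 values kept their direction, and the causes were not tested. Most of the 21 were chosen for the smallest p of their role. Of all 39 tested members, 7 had their direction turned by another scaling, none of them among the 21. These were Slc27a2, Cpt2, Acadvl, Hadha, Acaa1b, Cyp4a32 and Plin2.

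The count of all rows with a limma adjusted p under 0.05 was 1 with a pseudocount of 0.1, 1 with library weights, 5 with lycorine 3 and vehicle 3 left out and 0 to 2 with each library left out. The 2 members with an unadjusted p under 0.05 became 5 with no filter (beside 3.23% of rows) and 0 with median-of-ratios scaling (2.31%). The count was 1 with quantile normalization (2.13%), with protein-coding nuclear genes (2.10%) or without the variance trend (2.71%). It was 6 with library weights (beside 8.19% of rows). With each library left out it ran from 0 without lycorine 2 (1.41%) to 5 without vehicle 1 (8.37%). The 9 members without overlap became 3 under each of the 3 other scalings. All rows apart upward were then 3.20% with median-of-ratios scaling, 4.02% with quantile normalization and 4.82% with protein-coding nuclear genes. With each library left out the count ran from 10 without lycorine 2 to 21 without lycorine 3. For lycorine 3 left out, 19.1% of rows stood apart upward. Without vehicle 1 the count was 19, beside 31.0% of rows. With lycorine 3 and vehicle 3 left out it was 24 (27.0% of all rows apart upward). With these left out and protein-coding nuclear genes it was 19 (18 upward, beside 19.0% of rows). That combined setting was chosen after seeing the data.

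The members' median relative to all rows was 0.32 with no filter, 0.046 with a minimum mean of 5, 0.043 with quantile normalization and 0.076 to 0.27 with each library left out. For the other genes it was 0.25, 0.029 and -0.044 under those 3 settings, 0.049 under the combined setting and 0.022 to 0.17 with each library left out. For peroxisomal genes it was -0.056 with a minimum mean of 5 and 0.020 to 0.32 with each library left out, for mitochondrial genes 0.12 to 0.41, and for microsomal genes -1.36 to 0.13. The log2 fold change of Ppara was 0.047 with library weights, 0.27 with lycorine 3 and vehicle 3 left out, 0.12 under the combined setting and -0.86 to 0.92 with each library left out. That of Cyp4a10 was 0.0038 with library weights and -1.27 to 0.63 with each library left out, that of Fabp1 -0.043 to 0.81 and that of Acat1 -0.12 to 0.79.

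Deviations from the group means correlated at 0.31, 0.05 and 0.29 between libraries of the same number, and at -0.34 to 0.21 between the others. Every library but vehicle 2 correlated best with its own number. The labels do not state a pairing, so none was used in the main test, and these values do not exclude one. With a replicate block, 7 members (17.9%) had an unadjusted p under 0.05, beside 7.46% of all rows, and 0 rows passed after adjustment.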
